A study of Mus musculus with 10 samples.

Results

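Glucocorticoids raise a recurring group of transcripts in skeletal muscle, and the levels of 10 such genes were followed here in the gastrocnemius of mice that had breathed cigarette smoke. The genes are *Fkbp5*, *Tsc22d3*, *Klf9*, *Klf15*, *Ddit4*, *Zbtb16*, *Sgk1*, *Mt1*, *Mt2* and *Cdkn1a*. They were chosen by name, and each matched 1 Ensembl identifier among the 49315 in the count table. All 10 had enough counts to enter the comparison of 14714 genes. The RNA came from 10 male C57BL6J mice, and every mouse was smoke-exposed, 2 times a day for 1 h, 5 days a week, for 16 weeks. The 5 AHRfl mice carried a floxed aryl hydrocarbon receptor gene (*Ahr*) and served as wildtype controls. The 5 AHRmko mice also carried a Cre recombinase that tamoxifen activates, under the human *ACTA1* promoter, which acts in skeletal muscle fibres. The study describes the AHRfl mice as littermates without Cre, and smoke as starting after tamoxifen delivery. Muscle was listed as taken 72 h after the last smoke session, the upper end of a range given in the study's text. Air-exposed mice were not analysed here, so no value below measures an effect of smoke. The study calls these mice aged. Their age in figures, hormone levels and hour of harvest are not given in the sources used here.

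Corticosterone, the main glucocorticoid of the mouse, enters cells and binds the glucocorticoid receptor, encoded by *Nr3c1*. The hormone-bound receptor moves to the nucleus and binds DNA as a dimer at an inverted repeat, the glucocorticoid response element, or acts through other factors already bound there. In muscle this pathway is known for slowing protein synthesis, mobilising amino acids and promoting atrophy during stress, fasting and illness. The 10 genes cover several arms of the response: a brake on the receptor itself (*Fkbp5*), an anti-inflammatory protein (*Tsc22d3*, also called GILZ), Krüppel-like transcription factors (*Klf9*, *Klf15*), an inhibitor of mTORC1 signalling (*Ddit4*, also called REDD1), a kinase (*Sgk1*), metal-binding proteins (*Mt1*, *Mt2*), a zinc finger transcription factor (*Zbtb16*) and a cell cycle inhibitor (*Cdkn1a*). None of them answers to glucocorticoids alone. The metallothioneins also answer to zinc and other metals, and *Cdkn1a* is a standard p53 target.

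Promoter sequences of the 2 pairs of genes that moved together most closely from mouse to mouse, *Ddit4* with *Sgk1* and *Mt1* with *Mt2*, are shown first. RefSeq promoter entries on build GRCm38.p6, each 300 bases long with 250 before and 50 after the annotated start, were found for 9 of the 10 genes (17 entries, since *Sgk1* and some others have several starts). *Zbtb16* had none. The letters searched on both strands were the full glucocorticoid response element, AGAACA followed after any 3 bases by TGTTCT, its looser form, GNACA followed after any 3 bases by TGTNC, which every full match also holds, the 2 spellings of the metal response element core, TGCACNC and TGCGCNC, the E-box CACGTG and the AHR core GCGTG. Each sequence below reads 5′ to 3′ on the strand of its gene, the minus strand for *Ddit4* and the plus strand for the others. Capitals mark the full response element in the *Sgk1* entry (chr10:21993640-21993939), a metal core in *Ddit4* (chr10:59951721-59952020), the looser form and the metal cores in *Mt1* (chr8:94178839-94179138) and the metal cores in *Mt2* (chr8:94172368-94172667), where a core on the other strand appears as its reverse complement.
Sgk1: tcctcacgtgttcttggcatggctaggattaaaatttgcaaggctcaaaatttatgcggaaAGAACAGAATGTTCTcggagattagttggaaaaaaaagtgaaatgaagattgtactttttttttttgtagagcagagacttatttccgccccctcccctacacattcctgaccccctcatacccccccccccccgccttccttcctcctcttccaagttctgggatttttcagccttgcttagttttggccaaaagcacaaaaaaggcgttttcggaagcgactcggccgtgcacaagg
Ddit4: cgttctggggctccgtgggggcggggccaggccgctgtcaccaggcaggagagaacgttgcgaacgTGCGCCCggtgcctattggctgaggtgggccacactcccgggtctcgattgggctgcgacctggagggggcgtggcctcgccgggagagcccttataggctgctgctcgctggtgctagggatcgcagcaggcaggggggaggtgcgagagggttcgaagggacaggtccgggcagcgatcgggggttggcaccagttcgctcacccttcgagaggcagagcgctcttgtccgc
Mt1: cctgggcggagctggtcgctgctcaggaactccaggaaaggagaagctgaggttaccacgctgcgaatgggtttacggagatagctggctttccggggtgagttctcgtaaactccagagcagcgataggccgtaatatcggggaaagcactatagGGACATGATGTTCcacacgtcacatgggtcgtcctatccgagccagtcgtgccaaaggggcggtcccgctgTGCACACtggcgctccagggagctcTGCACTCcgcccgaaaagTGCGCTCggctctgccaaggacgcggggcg
Mt2: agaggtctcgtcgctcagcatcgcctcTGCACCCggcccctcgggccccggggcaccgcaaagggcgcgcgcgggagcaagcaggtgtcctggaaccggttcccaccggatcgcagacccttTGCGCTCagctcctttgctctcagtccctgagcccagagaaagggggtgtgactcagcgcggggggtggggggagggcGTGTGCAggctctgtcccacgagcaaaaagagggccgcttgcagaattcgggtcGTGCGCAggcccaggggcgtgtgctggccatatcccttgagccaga

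The full element was rare. It stood in 3 of 32851 promoter entries (0.00913%), and *Sgk1* was the only 1 of the 9 genes with it, as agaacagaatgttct starting 189 bases before the start. The looser form stood in 0.475% of entries and, besides *Sgk1*, in *Mt1*, 94 bases before the start. The *Ddit4* entry held neither form. The metal cores were common singly, with at least 1 in 25.7% of entries, but *Mt1* held 3 and *Mt2* held 4, and at least 3 stood in 1.97% and at least 4 in 0.517% of entries. The *Klf15* promoter held 3 copies of CACGTG, the E-box also used by clock factors, a number reached in 0.0883% of entries. GCGTG stood in 32.4% of entries and in at least 1 entry of 35.2% of genes. It stood in at least 1 entry of 8 of the 9 genes, all but *Fkbp5*. These are matches of letters in a short window, which do not show that a factor binds there.

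The libraries held between 30393035 and 37954388 counts, so 3 counts in a library corresponded to at most 0.0927 CPM, the counts scaled to each library's TMM-normalised size. Each of the 10 genes had far more. All 10 skeletal muscle markers checked (*Acta1*, *Ckm* and others) were detected in every mouse, with summed levels of 143590 to 198274 CPM. *Ahr* itself, listed over all its exons and in RNA of the whole muscle, ranged from 1.33 to 3.13 CPM in AHRfl and from 0.927 to 2.17 CPM in AHRmko mice, and the genotypes overlapped (log2 fold change −0.35, −0.13 without AHRfl 11). Since the Cre removes exon 2 only and only in fibres, this sum over exons does not check the deletion. The labels give no batch, cage or litter, and nothing in them pairs mice across genotypes.

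The first comparison asked whether loss of AHR in muscle fibres moved the glucocorticoid-responsive genes in smoke-exposed muscle. None of the 10 passed the threshold. The quasi-likelihood test of edgeR called 0 of 10 at a Benjamini-Hochberg adjusted p under 0.05, beside 1 of all 14714 tested genes (0.0068%). The DESeq2 Wald test also called 0 of 10, beside 0.193% of the genes it adjusted, and so did limma-voom. At an unadjusted p under 0.05 by edgeR, 1 of 10 was counted (*Cdkn1a*) against 6.61% of all tested genes. By DESeq2 2 of 10 were counted (*Zbtb16* and *Cdkn1a*) against 3.62% of the 31833 genes it tested. Those 31833 were not filtered by count and include genes of very few counts, so the 2 shares are not like for like. In 0 of 10 were the 5 AHRmko mice all above or all below the 5 AHRfl mice, against 1.4% of all tested genes. The 10 fold changes fell evenly, 5 above and 5 below 0, with a median of −0.05 on the log2 scale beside 0.0056 over all tested genes. The intervals were not equally narrow. That of *Klf9* ran from −0.32 to 0.01, whereas that of *Mt2* ran from −1.31 to 3.16, so that for *Mt1* and *Mt2* changes of over 2-fold in either direction lay inside the interval.

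**Figure D1:**
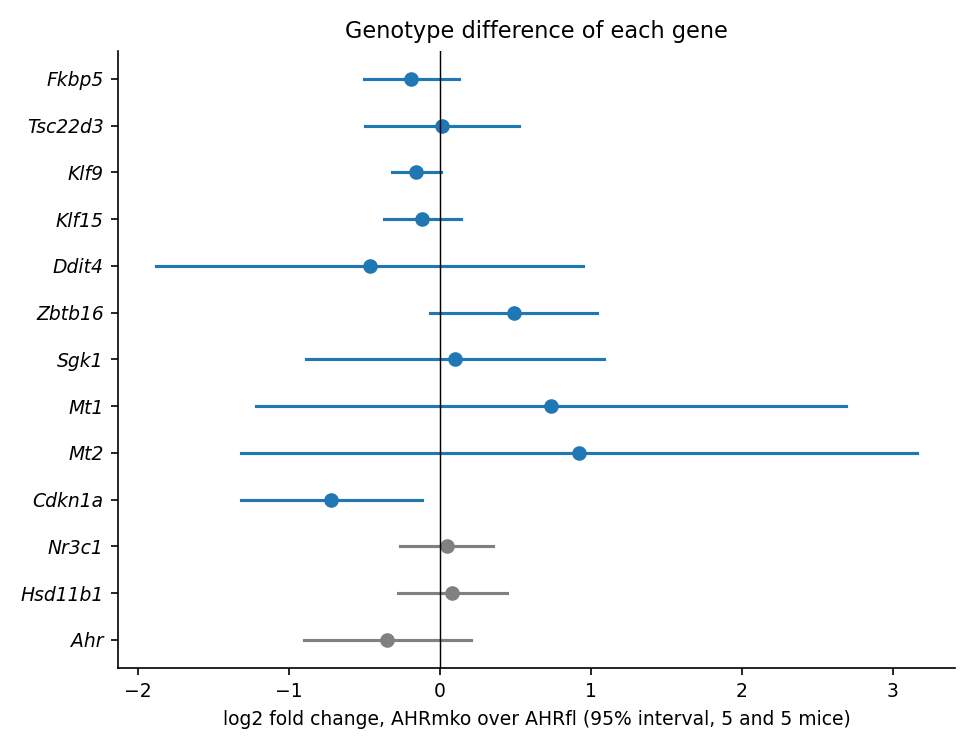
Log2 fold change of AHRmko over AHRfl (points) with its 95% interval (lines) from the edgeR fit, n = 5 and 5 mice, for the 10 genes (blue) and for *Nr3c1*, *Hsd11b1* and *Ahr* (grey). *Cdkn1a* (−0.72) has the only interval among these 13 genes that does not reach 0, and those of *Ddit4*, *Mt1* and *Mt2* are the widest.

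*Fkbp5* (ENSMUSG00000024222, chr17:28399094-28517527, minus strand) encodes the co-chaperone FKBP51, which lowers the receptor's affinity for hormone and closes a short feedback loop. Its levels were 45.9, 55.9, 48.5, 74.8 and 55.2 CPM in AHRfl mice 11, 12, 13, 15 and 33, and 39.8, 49.2, 43.7, 51.4 and 62.0 CPM in AHRmko mice 8, 9, 19, 22 and 34. The genotypes overlapped over most of their range, and AHRfl 15 and AHRmko 34 were the high mice. The means were 56.1 ± 11.3 and 49.2 ± 8.47 CPM (SD, n = 5 each). Between genotypes *Fkbp5* differed by −0.19 in log2 fold change, with a standard error of 0.143 (adjusted p = 0.849 by edgeR). It was −0.06 without AHRfl 15 and −0.29 without AHRmko 34.

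*Tsc22d3* (ENSMUSG00000031431, chrX:140539528-140600659, minus strand) encodes GILZ, which restrains NF-kappaB and AP-1. It stood at 173, 388, 251, 192 and 192 CPM in AHRfl mice 11, 12, 13, 15 and 33. In AHRmko mice 8, 9, 19, 22 and 34 it stood at 208, 206, 230, 234 and 331 CPM. A single mouse stood out in each genotype, AHRfl 12 and AHRmko 34. The other AHRmko mice lay within 206 to 234 CPM, inside the AHRfl range. The fitted log2 difference, AHRmko over AHRfl, was 0.02 with a standard error of 0.229 (adjusted p = 0.995 by edgeR), and its sign depended on the mouse left out, from −0.12 without AHRmko 34 to 0.26 without AHRfl 12.

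The Krüppel-like factors were the steadiest of the 10. *Klf9* (ENSMUSG00000033863, chr19:23141226-23168134, plus strand), a transcriptional repressor induced directly by the receptor in many tissues, was at 211, 230, 229, 194 and 209 CPM in AHRfl mice 11, 12, 13, 15 and 33 and at 183, 220, 199, 176 and 186 CPM in AHRmko mice 8, 9, 19, 22 and 34. The highest mouse exceeded the lowest by 1.31 times. Of the AHRmko mice, 3 lay below every AHRfl mouse and 2 inside the AHRfl range. The means were 214.6 ± 15.3 and 192.7 ± 17.5 CPM (SD, n = 5 each) and the log2 fold change was −0.15 with a standard error of 0.0762 (exact permutation p = 0.0714, two-sided, over all assignments of 5 and 5 mice, which can reach 0.00794). After adjustment over all genes p was 0.774 by edgeR. Without AHRmko 9, the highest AHRmko mouse, the log2 fold change was −0.21.

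*Klf15* (ENSMUSG00000030087, chr6:90462576-90475238, plus strand) drives amino acid breakdown in muscle and is known to rise with fasting and with glucocorticoids. Its levels were 36.0, 41.3, 32.0, 38.02 and 53.6 CPM in AHRfl mice 11, 12, 13, 15 and 33, and 38.9, 38.4, 36.6, 39.1 and 32.4 CPM in AHRmko mice 8, 9, 19, 22 and 34. AHRfl 33 alone was above 50, and AHRmko 34, high for several other genes, was the lowest of its genotype. The log2 fold change of −0.12 (standard error 0.117, adjusted p = 0.894 by edgeR) went to 0.0088 when AHRfl 33 was left out. Of 10 genes of amino acid breakdown listed with *Klf15*, such as *Prodh*, 0 passed the adjusted threshold, 2 had an unadjusted p under 0.05 by edgeR (6.61% over all tested genes), and the median log2 fold change was 0.025.

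*Ddit4* (ENSMUSG00000020108, chr10:59949669-59951834, minus strand) encodes an inhibitor of mTORC1 signalling that glucocorticoids, hypoxia and energy stress raise. It was at 57.2, 401, 150, 86.2 and 81.1 CPM in AHRfl mice 11, 12, 13, 15 and 33 and at 142, 94.2, 39.3, 103 and 184 CPM in AHRmko mice 8, 9, 19, 22 and 34. The extremes, AHRfl 12 and AHRmko 19, differed 10.2 times, and the AHRmko range lay almost wholly inside that of AHRfl. The means were 155 ± 142 and 112 ± 54.2 CPM (SD, n = 5 each), an SD near the mean in AHRfl mice. In the fit, *Ddit4* had a log2 fold change of −0.46 and a standard error of 0.617 (adjusted p = 0.928 by edgeR). Without AHRfl 12 it was 0.27, so that 1 mouse set its sign.

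*Sgk1* (ENSMUSG00000019970, chr10:21882184-21999903, plus strand), whose promoter with the full response element is printed above, encodes a kinase of the AKT family that regulates ion transport and, in muscle, has been linked to maintenance of mass. Its levels were 105, 379, 172, 135 and 150 CPM in AHRfl mice 11, 12, 13, 15 and 33. In AHRmko mice 8, 9, 19, 22 and 34 they were 276, 137, 100.4, 177 and 320 CPM. The order resembled that of *Ddit4*: AHRfl 12 was highest, AHRmko 34 led its genotype with AHRmko 8 next, and AHRmko 19 was lowest. Its log2 fold change of 0.10, with a standard error of 0.434, gave an adjusted p of 0.982 by edgeR. It was 0.53 without AHRfl 12 and −0.12 without AHRmko 34.

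The metallothioneins lie side by side, *Mt2* at chr8:94172664-94173568 (ENSMUSG00000031762) and *Mt1* at chr8:94179082-94180327 (ENSMUSG00000031765), both on the plus strand, and encode small cysteine-rich proteins that bind zinc and copper. *Mt1* was at 16.4, 104, 22.03, 24.9 and 29.0 CPM in AHRfl mice 11, 12, 13, 15 and 33 and at 23.2, 15.4, 117, 18.0 and 154 CPM in AHRmko mice 8, 9, 19, 22 and 34. *Mt2* was at 14.6, 85.7, 15.5, 15.7 and 18.5 CPM in the same AHRfl mice and at 14.5, 11.6, 130, 9.05 and 120 CPM in the same AHRmko mice. Both genes thus had a high level in AHRfl 12, AHRmko 19 and AHRmko 34 and a low one in the other 7 mice, with nothing in between. *Mt1* was at 104 CPM or more in the 3 high mice and at 29.0 CPM or less in the others. The fitted log2 fold changes were 0.74 for *Mt1* (standard error 0.852, adjusted p = 0.916 by edgeR) and 0.92 for *Mt2* (standard error 0.975, adjusted p = 0.903). The medians went the other way, 24.9 in AHRfl against 23.2 CPM in AHRmko mice for *Mt1* and 15.7 against 14.5 CPM for *Mt2*. Without the 3 high mice the log2 fold changes were −0.29 and −0.45, a description only, since these mice were left out for their levels. The *Mt2* counts carry a limit. The antisense gene *Gm45774* shares 73.47% of the *Mt2* exon bases, the strandedness of the counting is not stated, and *Gm45774* was itself at 12.2 CPM in AHRfl 12, 7.16 in AHRmko 19 and 22.6 in AHRmko 34 against at most 2.39 CPM in the other 7 mice. *Mt1* shares no exon bases with another gene.

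*Zbtb16* (ENSMUSG00000066687, chr9:48654297-48836222, minus strand), which encodes the transcription factor PLZF and is used as a sensitive marker of glucocorticoid exposure, was at 48.5, 44.9, 53.1, 57.2 and 83.6 CPM in AHRfl mice 11, 12, 13, 15 and 33. In AHRmko mice 8, 9, 19, 22 and 34 it was at 75.1, 67.7, 107, 47.3 and 106 CPM. Most AHRmko mice (4 of 5) were above 4 of the 5 AHRfl mice, but AHRfl 33 and AHRmko 22 crossed over. The means were 57.5 ± 15.3 and 80.6 ± 25.7 CPM (SD, n = 5 each). The log2 fold change was 0.49 with a standard error of 0.247 (exact permutation p = 0.127, two-sided), and the adjusted p was 0.788 by edgeR. It fell to 0.06 without AHRfl 12, AHRmko 19 and AHRmko 34. In AHRfl mice *Zbtb16* was lowest in AHRfl 12, the mouse with the highest *Ddit4*, *Sgk1* and *Tsc22d3*.

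*Cdkn1a* (ENSMUSG00000023067, chr17:29090976-29100727, plus strand) encodes p21, which blocks cyclin-dependent kinases. It was at 69.0, 62.8, 56.8, 44.9 and 47.8 CPM in AHRfl mice 11, 12, 13, 15 and 33 and at 37.5, 43.7, 27.6, 16.0 and 46.4 CPM in AHRmko mice 8, 9, 19, 22 and 34. The genotypes met at a single place, AHRmko 34 standing above AHRfl 15. The means were 56.3 ± 10.1 and 34.2 ± 12.5 CPM (SD, n = 5 each). The log2 fold change was −0.72 (95% interval −1.32 to −0.12), with an exact permutation p of 0.0159 (two-sided). Over all genes it was not called, with an adjusted p of 0.683 (edgeR). The sign held when any single mouse was left out (−0.85 to −0.54), with unadjusted p values from edgeR of 0.0095 to 0.0554. Among 13 tested p53 target genes, 0 passed the adjusted threshold and 2 had an unadjusted p under 0.05 by edgeR (6.61% over all tested genes). Of the 13 fold changes 9 were below 0, as were 48.5% over all tested genes, with a median of −0.08 on the log2 scale. *Cdkn1a* shares 7.68% of its exon bases with the antisense gene *AC167363.2*.

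**Figure D2:**
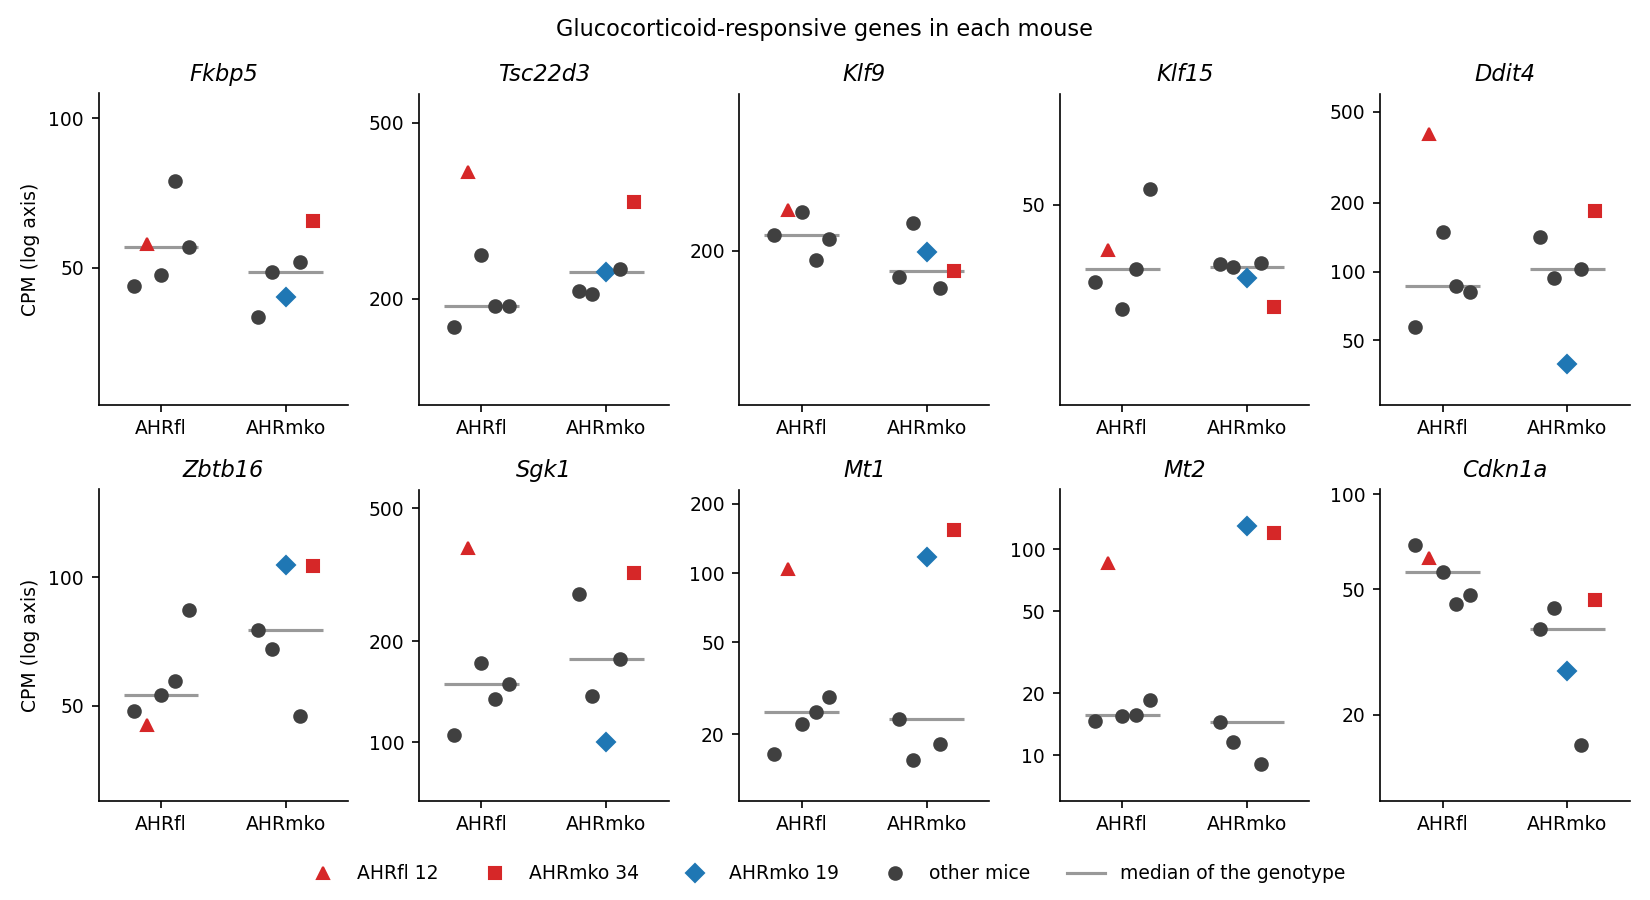
Level of each gene in each mouse in CPM on a log axis (a separate range in each panel), AHRfl on the left and AHRmko on the right, with the median of the 5 mice as a grey line. AHRfl 12 (red triangle) and AHRmko 34 (red square) top their genotype for *Tsc22d3*, *Ddit4* and *Sgk1*, and together with AHRmko 19 (blue diamond) they stand apart for *Mt1* and *Mt2*, at 85.7 CPM or more.

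Per kb of exon, the scale on which different genes can be set side by side, the median over the 10 mice was highest for *Ddit4* (56.15 CPM per kb), then *Tsc22d3* (50.5), *Klf9* (42.3), *Sgk1* (32.8), *Mt2* (26.5), *Mt1* (19.3), *Klf15* (13.7), *Cdkn1a* (12.8), *Zbtb16* (11.8) and *Fkbp5* (5.31). Neighbours in this order overlapped from mouse to mouse, except that *Fkbp5*, at 4.21 to 7.90 CPM per kb, lay below *Zbtb16*, at 8.505 to 20.2. Exon lengths are unions over all annotated transcripts, so a gene with long rare transcripts reads low on this scale.

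For 7 of the 10 genes, all but *Klf9*, *Zbtb16* and *Cdkn1a*, the within-genotype SD of log2 CPM was larger than the size of the log2 fold change between genotypes. The highest of the 10 mice exceeded the lowest 14.3 times for *Mt2*, 10.2 times for *Ddit4*, 9.995 times for *Mt1*, 4.30 times for *Cdkn1a* and 3.78 times for *Sgk1*. It did so by 2.38 times for *Zbtb16*, 2.24 for *Tsc22d3*, 1.88 for *Fkbp5* and 1.67 for *Klf15*. To set this beside other genes, that SD was ranked among the 500 tested genes nearest to it in mean level. *Mt1* (SD 1.33), *Mt2* (1.54), *Ddit4* (0.98) and *Sgk1* (0.70) lay at percentile 99.0 or above, where the median gene of like level had an SD of 0.12 or 0.13. *Cdkn1a*, *Zbtb16* and *Tsc22d3* lay at percentiles 98.0, 96.8 and 96.2, *Fkbp5* and *Klf15* at 90.0 and 85.8, and *Klf9* at 43.2. The 10 genes thus ran from *Klf9*, close to the median for its level, to *Mt1*, more variable than any of the 500 genes of like level.

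The variable genes peaked in particular mice. AHRfl 12 was the highest AHRfl mouse for 6 of the 10 genes, where it was the highest AHRfl mouse for 28.1% of all tested genes. Against the median of the other 4 AHRfl mice it was at 5.501 times for *Mt2*, 4.80 for *Ddit4*, 4.44 for *Mt1*, 2.66 for *Sgk1* and 2.02 for *Tsc22d3*. AHRmko 34 was the highest AHRmko mouse for 6 of the 10 (*Fkbp5*, *Tsc22d3*, *Ddit4*, *Sgk1*, *Mt1* and *Cdkn1a*), against 22.006% of all tested genes, and second to AHRmko 19 for *Mt2*. It was at 9.15 times the median of the other 4 for *Mt2*, 7.48 for *Mt1*, 2.04 for *Sgk1*, 1.87 for *Ddit4* and 1.51 for *Tsc22d3*. In both mice these 5 genes, and none of the other 5, were above 1.5 times the median of the other 4. In AHRmko 34 this cut fell between near values, since *Zbtb16* was at 1.48 times and *Cdkn1a* at 1.42. In AHRfl 12 *Zbtb16* was at 0.815 times and *Cdkn1a* at 1.20. *Nr3c1*, the receptor gene, was at 1.46 times in AHRfl 12 and 1.41 times in AHRmko 34. *Klf9*, *Klf15* and *Fkbp5* did not take part to the same extent, none of them exceeding 1.5 times the other 4 in either mouse.

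AHRmko 19 showed a different combination. Its *Mt1* and *Mt2* were at 5.70 and 9.92 times the median of the other 4 AHRmko mice, close to the levels of AHRmko 34. Its *Ddit4* and *Sgk1*, at 0.32 and 0.44 times the other 4, were the lowest of all 10 mice, and its *Tsc22d3* was at 1.04 times. High metallothionein transcripts were therefore found with high *Ddit4* and *Sgk1* in 2 mice and with low ones in 1. AHRmko 22 stood at the other end, lowest of all 10 for *Mt2*, *Klf9* and *Cdkn1a*.

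**Figure D3:**
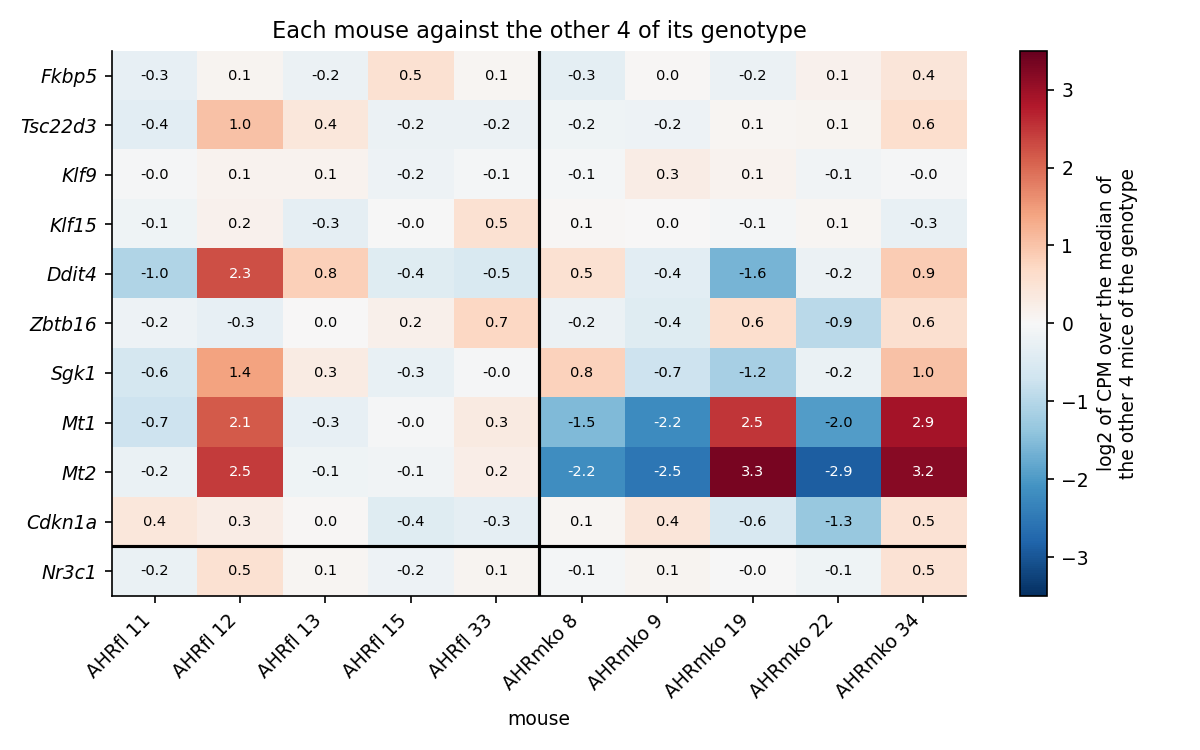
Log2 of each mouse's CPM over the median of the other 4 mice of its genotype (colour and printed value), genes in rows and mice in columns, with a vertical line between the genotypes and *Nr3c1* below the horizontal line. The columns of AHRfl 12 and AHRmko 34 are red for *Tsc22d3*, *Ddit4*, *Sgk1*, *Mt1* and *Mt2*, and that of AHRmko 19 is red for *Mt1* and *Mt2* and blue for *Ddit4* and *Sgk1*.

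Other features of these libraries moved with the same mice, and their part in the result was not tested. The 10 skeletal muscle markers summed to 198274 CPM in AHRfl 12 and 194896 in AHRmko 34, above the other AHRfl mice (143590 to 174405) and the other AHRmko mice (160415 to 176885). Not all of them followed the sum. *Myh4*, the fast 2B myosin, was highest of its genotype in both mice (66541 and 63948 CPM), whereas *Myh1* (1251 and 1230 CPM) and *Myh2* (297 and 1173 CPM), the 2X and 2A myosins, were lowest of their genotype in both. The sums of the endothelial and erythroid markers were also lowest of their genotype in both mice, at 107 CPM (endothelial) and 105 CPM (erythroid) in AHRfl 12 and at 121 and 143 CPM in AHRmko 34. All 7 slow-fibre markers were detected, and their sum ran from 65.8 CPM in AHRfl 12 to 1754 in AHRfl 15, and from 226 to 2112 CPM in AHRmko mice, with AHRmko 34 at 262. The 10 immediate early genes, which rise within minutes of many stimuli and with handling of tissue, summed to 1239 CPM in AHRfl 12 and 1133 in AHRmko 34 against 456 to 885 CPM in the other 8 mice. In whole-muscle RNA, fewer cells of a type and less RNA per cell cannot be told apart. *Xist*, a transcript of females, was listed at 1.16 to 2.32 CPM in 5 of these male libraries and at 0 to 0.0856 CPM in the other 5, among them AHRfl 12, AHRmko 19 and AHRmko 34, while the Y-linked *Ddx3y* was at 57.0 CPM or more in all 10. AHRfl 13 and AHRmko 8, also low in *Xist*, had *Mt1* at 22.03 and 23.2 CPM, within the range of the mice with *Xist* counts. With the slow-fibre score, a contrast of clock genes or the *Xist* level as a covariate, 0 of the 10 genes passed the threshold between genotypes in edgeR, and 1 (*Cdkn1a*) had an unadjusted p under 0.05 in each of these fits. Directions did turn. The *Xist* level took *Mt1* from 0.74 to −0.0499 and *Mt2* from 0.92 to 0.0083 in log2 fold change and reversed *Tsc22d3* and *Sgk1* (−0.10 each), and the slow-fibre score took *Ddit4* from −0.46 to 0.0252.

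Co-variation was measured across the 10 mice after the genotype mean of log2 CPM was subtracted, over the 45 pairs of the 10 genes, with exact two-sided permutation of the mice within genotypes. Relations are given as Pearson's r. *Ddit4* and *Sgk1* rose and fell together (r = 0.96, exact permutation p = 0.00014, 0.0062 after Benjamini-Hochberg adjustment over the 45 pairs). Spearman's rho was 0.95 (exact permutation p = 0.00021, adjusted 0.0094). Without AHRfl 12 and AHRmko 19, the mice farthest from the median of *Ddit4*, r was 0.86. The pair kept an adjusted p under 0.05 when any single mouse was left out (r from 0.92 to 0.98). With AHRfl 12 and AHRmko 34 both left out, r was 0.90 over 8 mice, with an exact permutation p of 0.0122 and an adjusted p of 0.234. With so few orders of 8 mice, a single pair could not reach an adjusted p under 0.0781.

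*Mt1* and *Mt2* gave r = 0.98 and rho = 0.94 (exact permutation p = 0.0019 and 0.0015, adjusted 0.0422 and 0.0328 over the 45 pairs), but the mice fell into 3 high and 7 low ones. Without AHRmko 19 and AHRmko 34, farthest from the median, r was 0.96. Among the 7 mice at the low level r was 0.62, a description only, since choosing mice by these levels narrows their range. The adjusted p stayed under 0.05 in 3 of the 10 fits that left out 1 mouse.

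*Tsc22d3* went with *Ddit4* (r = 0.81), *Sgk1* (0.78) and *Mt1* (0.74), with exact permutation p of 0.00826, 0.0135 and 0.0111 and an adjusted p of 0.121 for each, above the threshold. Spearman's rho for these pairs was 0.76, 0.71 and 0.47 (exact permutation p = 0.0166, 0.0179 and 0.108, adjusted p = 0.202, 0.202 and 0.811 over the 45 pairs). Without AHRfl 12 and AHRmko 34 the 3 values of r were 0.37, 0.22 and 0.23. With AHRmko 19 left out as well, *Tsc22d3* had r = 0.82 with *Ddit4* and 0.47 with *Sgk1* over 7 mice. Without AHRmko 19 alone, its r with *Ddit4* was 0.94 and the adjusted p 0.0352 by exact permutation. *Tsc22d3* with *Mt2* gave r = 0.67 (exact permutation p = 0.0374, adjusted p = 0.280), rho = 0.30 (exact permutation p = 0.265, adjusted p = 1.0) and r = 0.14 without the same 2 mice. Over all 10 mice no pair with *Fkbp5*, *Klf9*, *Klf15*, *Zbtb16* or *Cdkn1a* had an unadjusted p under 0.05 in the exact permutation test, and *Ddit4* and *Mt1*, which share the 2 extreme mice but part in AHRmko 19, had r = 0.32. Single mice bore on some of these pairs. *Zbtb16* with *Mt2* went from r = 0.53 over all mice to 0.82 without AHRfl 12 (adjusted p = 0.0156 by exact permutation), to 0.77 without AHRfl 12 and AHRmko 34 (adjusted 0.0781) and to −0.21 without AHRmko 19 and AHRmko 34. *Sgk1* with *Mt1* went from 0.42 to 0.83 without AHRmko 19 (adjusted p = 0.0352 by exact permutation). The same pair went to 0.12 without AHRfl 12 and to −0.46 without AHRfl 12 and AHRmko 34.

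**Figure D4:**
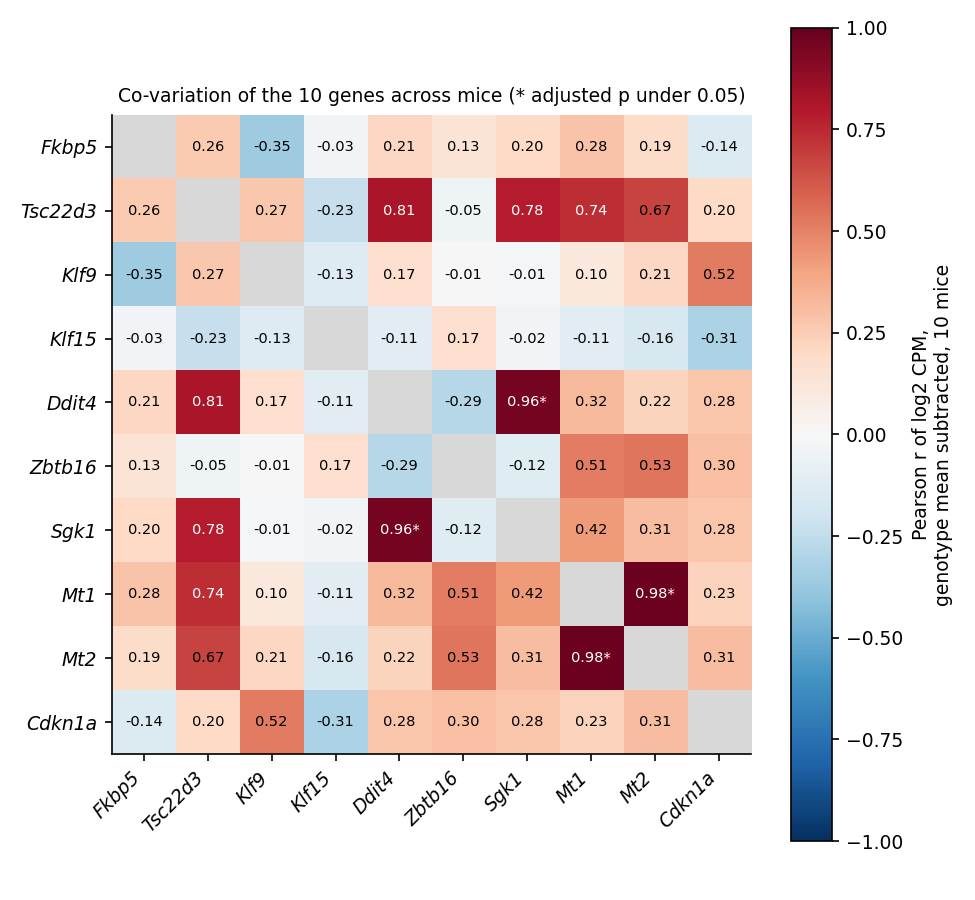
Pearson r (colour and printed value) of log2 CPM for each pair of the 10 genes across 10 mice, with the genotype mean subtracted. The asterisks mark an adjusted p under 0.05 over the 45 pairs (exact permutation within genotypes), which *Ddit4* with *Sgk1* (0.96) and *Mt1* with *Mt2* (0.98) had.

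For each gene, the tested genes most like it across the mice were looked for among 12130 genes with a mean log2 CPM over 0, by the same r over 10 mice. These are descriptions with no test, since the best of so many genes is high by construction. *Ddit4* and *Sgk1* had *Pcx*, the pyruvate carboxylase gene of gluconeogenic and anaplerotic metabolism, in common among their closest 3 (r = 0.96 and 0.95). *Sgk1* was also close to *Errfi1*, an inhibitor of EGF receptor signalling (0.95). *Mt1* and *Mt2* shared *Vmp1*, an autophagy gene (0.96 and 0.97), and *Mt2* was close to *Sbno2*, a transcriptional regulator downstream of STAT3 (0.96), which was at 17.2 CPM in AHRfl 12 and 27.0 in AHRmko 34 against medians of 10.8 and 10.3 CPM in the other 4 mice. *Tsc22d3* was closest to *Nolc1* (0.98). *Cdkn1a* was closest to *Rhot1* (0.97), and another of its closest 3 was *Arntl*, which encodes the clock factor BMAL1 (0.94). *Arntl* was at 9.45 CPM in AHRmko 19 and 6.89 in AHRmko 22 against at least 21.4 CPM in the other 8 mice, and the same 2 mice had the lowest *Cdkn1a*. The nearest genes of *Fkbp5* (*Akap10*, 0.90), *Klf9* (*Gopc*, 0.96), *Klf15* (*Hdac10*, 0.88) and *Zbtb16* (*4933439C10Rik*, 0.91) were not shared with another of the 10.

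No gene of the machinery that handles the hormone passed the threshold between genotypes. *Nr3c1* (ENSMUSG00000024431) was at 72.9, 116, 84.3, 75.3 and 85.6 CPM in AHRfl mice 11, 12, 13, 15 and 33 and at 81.4, 88.1, 84.1, 77.7 and 117 CPM in AHRmko mice 8, 9, 19, 22 and 34. AHRfl 12 and AHRmko 34 were again the highest, and the other 8 mice lay between 72.9 and 88.1 CPM. *Nr3c1* had a log2 fold change of 0.05 (95% interval −0.26 to 0.35). *Hsd11b1*, which encodes the enzyme that regenerates active hormone inside cells, was at 4.10 to 6.61 CPM in AHRfl and 4.31 to 7.10 CPM in AHRmko mice, with a log2 fold change of 0.08 (95% interval −0.27 to 0.44). Of the 21 tested genes for the receptor, its chaperones, its cofactors and hormone handling, 0 passed the adjusted threshold and 2 had an unadjusted p under 0.05 by edgeR (background 6.61%). The lowest belonged to *Ep300*, an acetyltransferase coactivator, at 25.6 ± 1.44 CPM in AHRfl and 31.2 ± 2.91 in AHRmko mice (SD, n = 5 each), a log2 fold change of 0.29 with an adjusted p of 0.606 by edgeR.

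A wider list of 40 other glucocorticoid-responsive genes had 20 fold changes above and 20 below 0. Of these 40, 0 passed the adjusted threshold, 3 had an unadjusted p under 0.05 by edgeR, near the 6.61% of all tested genes, and the median log2 fold change was 0.0062. In 1 of the 40, *Slc25a33*, a mitochondrial pyrimidine nucleotide carrier, the genotypes did not overlap (background 1.4%). It was at 17.8 to 24.8 CPM in AHRfl and 13.8 to 16.5 CPM in AHRmko mice, and its log2 fold change of −0.37, with a standard error of 0.0981, had an adjusted p of 0.606 by edgeR. The mice that led the 10 genes led this list too. AHRfl 12 was the highest AHRfl mouse for 24 of the 40 and AHRmko 34 the highest AHRmko mouse for 17 of the 40. For the receptor and hormone list they led 9 and 12 of 21 genes, for the immediate early genes 8 of 10 each, and for the skeletal muscle markers 7 and 6 of 10, with *Myh1* and *Myh2* lowest in both mice. They also led 5 and 3 of 8 metal-responsive genes and 7 and 4 of 13 p53 target genes. Several other lists did not follow both mice. They led 1 each of 10 integrated stress response genes, 3 and 0 of 10 amino acid breakdown genes, 4 and 1 of 13 clock genes, and 0 of the slow-fibre, endothelial and fibroblast markers.

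**Figure D5:**
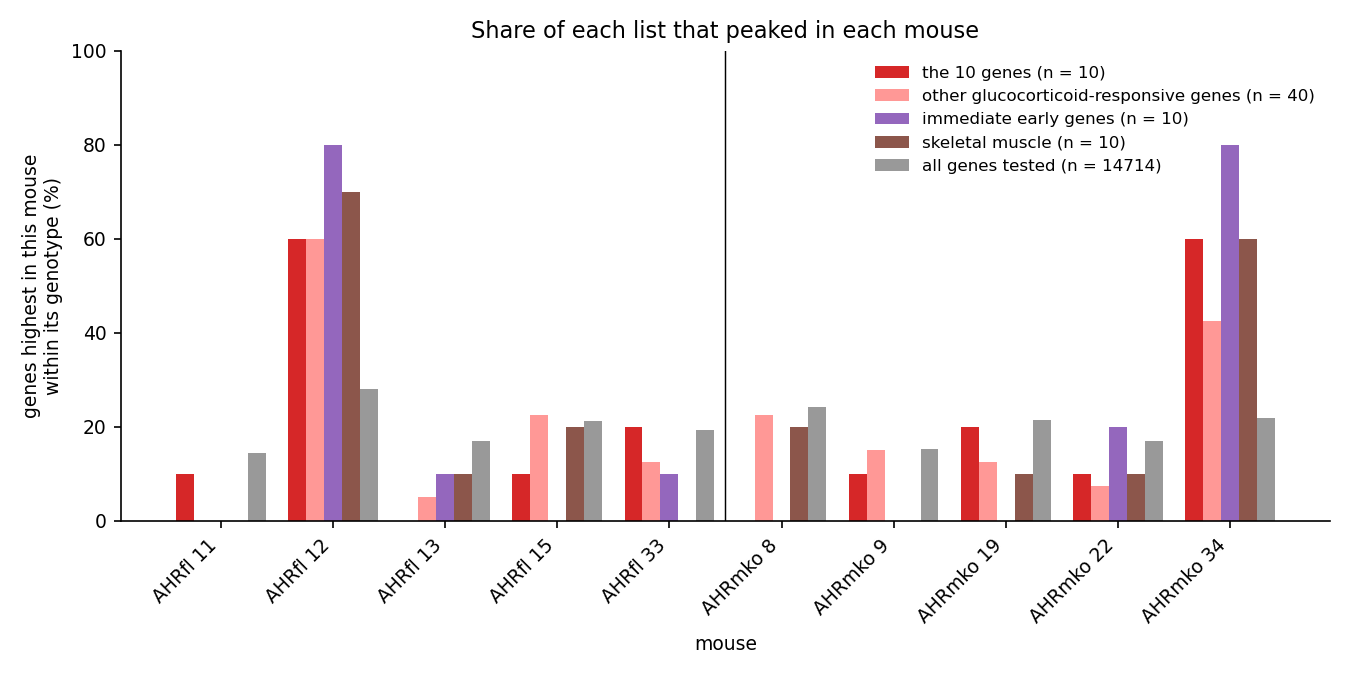
Percentage of the genes of each list that were highest in a given mouse within its genotype, for the 10 genes, 40 other glucocorticoid-responsive genes, 10 immediate early genes, 10 skeletal muscle markers and all 14714 tested genes. AHRfl 12 and AHRmko 34 carry the tallest bars of their genotype for the first 4 lists, which were drawn because these mice led them, and their shares of all tested genes are 28.1% and 22.006%.

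Other lists bear on single genes among the 10. The 8 tested genes that answer to metals besides *Mt1* and *Mt2* summed to 92.2 to 119 CPM in AHRfl and 90.8 to 107 CPM in AHRmko mice, with 119 CPM in AHRfl 12, 103 in AHRmko 19 and 107 in AHRmko 34. Within the list *Hmox1*, which encodes the haem-degrading enzyme heme oxygenase 1, was at 14.5 CPM in AHRmko 19 against 5.34 to 9.69 CPM in the other 9 mice. *Slc30a1*, of the same list, went the other way. It was at 5.77 CPM in AHRfl 12, 6.39 in AHRmko 19 and 6.28 in AHRmko 34 against 6.75 to 9.52 CPM in the other 7 mice. Of the 8, 1 had an unadjusted p under 0.05 by edgeR (6.61% over all tested genes) and 0 passed the adjusted threshold. Whether metals played a part in the metallothionein levels was not tested. The denervation-responsive genes, which rise when muscle loses its nerve supply, summed to 176 CPM in AHRmko 19 and 183 in AHRmko 34 against 114 to 119 CPM in the other AHRmko mice, and to 144 CPM in AHRfl 12 against 117 to 137 in the other AHRfl mice. Most of this difference was in *Gadd45a*, a stress-induced gene of growth arrest and muscle atrophy, at 74.1 CPM in AHRmko 19, 80.4 in AHRmko 34 and 54.4 in AHRfl 12 against 24.5 to 38.4 CPM in the other 7 mice. It was thus highest in the 3 mice with high metallothionein transcripts, and the genotypes overlapped. Of 8 tested genes of this list, 0 passed the adjusted threshold and 1 had an unadjusted p under 0.05 by edgeR (6.61% over all tested genes). Among 13 clock genes, 0 passed and 3 had an unadjusted p under 0.05 (edgeR, 6.61% over all tested genes), with a median log2 fold change of 0.10. Of 10 integrated stress response genes, which with *Ddit4* follow ATF4, 0 had an unadjusted or adjusted p under 0.05 by edgeR, and 9 of the 10 fold changes were below 0 (median −0.17), beside 48.5% over all tested genes.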

How the data were processed

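RNA-seq of the gastrocnemius was analysed in 10 mice, 5 AHRfl and 5 AHRmko. PolyA-selected RNA was read in pairs, and the authors used Trimmomatic 0.36 for trimming, STAR 2.5.2b for mapping to GRCm38 and featureCounts for counting on exons. The deposited values are raw counts, with a column per mouse, neither normalised nor pooled. Strandedness and the Ensembl release are not given in the sources used here. Gene names and exon lengths came from GENCODE M21, which held 49056 of 49315 identifiers (99.47%).

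In R 4.3.3, genes were kept by filterByExpr (minimum count 10, minimum total count 15), normalised by TMM and compared with edgeR 4.0.16's robust quasi-likelihood test, with Benjamini-Hochberg adjustment over 14714 genes and a threshold of 0.05. CPM are TMM-scaled, with a prior count of 2 where logs were taken. For single genes a two-sided exact permutation test over all assignments of the mice was added (smallest p 0.00794). Nothing in the labels says which mice share a litter or a day, so the p-values measure the spread between these mice. DESeq2 1.42.0, limma-voom (limma 3.58.1), other scalings and filters, covariates and leaving out mice were alternatives. The fits were tested on simulated data, but the outcome is not given here and no printed value rests on it. The study used DESeq2. Here edgeR was the main test and DESeq2 an alternative, and they called 1 and 21 genes.

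The 10 genes and all lists were chosen with earlier results of these data known, so they are no independent evidence. Named besides the 10 were *Nr3c1*, *Hsd11b1* and *Ahr*, list genes past the threshold or without overlap, the gene of lowest p in the receptor and the wider glucocorticoid list, and, for each of the 10, its closest 3 genes by r. *Pcx* and the other neighbours described are a selection from these. *Gm45774*, *AC167363.2*, *Xist*, *Ddx3y*, *Prodh*, *Hmox1*, *Slc30a1*, *Gadd45a*, *Myh1*, *Myh2* and *Myh4* fall outside this rule and were named after their values were seen. Promoter letters were searched as exact strings in the RefSeq promoter table.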

Additional observations from a re-analysis of the deposited data

Results flagged for a closer look

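Log2 CPM of single mice were compared within each genotype of 5 mice. The measure was the gap of the highest or lowest mouse to its neighbour over the whole range, with a critical value of 0.71 (Dixon). All ratios below are on this log2 scale, and ratios on unlogged CPM, which can differ, were not taken. Of 30 groups compared, 2 passed, and chance flags about 1 in 20 groups, here 1.5. *Tsc22d3* was set apart in AHRmko 34, with a ratio of 0.727, at 331 CPM against 206 to 234 CPM in the other AHRmko mice. *Mt2* was set apart in AHRfl 12, with a ratio of 0.869, at 85.7 CPM against 14.6 to 18.5 CPM in the other AHRfl mice. The high *Mt2* of AHRmko 19 and AHRmko 34 did not pass, since 2 high mice lie beside each other in 1 group. The cause of these levels was not tested.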

How the results depend on the processing

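Under 11 planned settings, 10 fits that each left out 1 mouse and 3 settings added after the data were seen, 0 of the 10 genes passed the adjusted threshold. Over single-gene values under these alternatives, 321 of 345 kept their direction and side of the threshold, 24 reversed and 0 crossed the threshold, and 17 of the reversals were among the 10 genes. The number of genes past the threshold over the whole table was 1 in the main comparison, 21 with the DESeq2 Wald test (0.193% of the genes it adjusted), 5 with no filter beyond 1 count, 2 with a slow-fibre covariate, 2 without AHRfl 12 and AHRmko 34, 0 without AHRfl 12, AHRmko 19 and AHRmko 34 (edgeR, where 1495 genes had an unadjusted p under 0.05), and 1 to 6 with 1 mouse left out, the 6 without AHRmko 34. The cause was not tested.

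The median log2 fold change of the 10 genes was −0.12 to 0.26 with 1 mouse left out, highest without AHRfl 12. Leaving out 1 mouse moved the log2 fold change from −0.12 to 0.26 for *Tsc22d3*, −0.19 to 0.0088 for *Klf15*, −0.71 to 0.27 for *Ddit4*, −0.12 to 0.53 for *Sgk1*, 0.14 to 1.504 for *Mt1*, 0.38 to 1.82 for *Mt2*, −0.0692 to 0.17 for *Nr3c1*, −0.0359 to 0.19 for *Hsd11b1*, −0.29 to −0.06 for *Fkbp5*, 0.37 to 0.66 for *Zbtb16* and −0.48 to −0.13 for *Ahr*. With the *Xist* level as a covariate, signs reversed for *Tsc22d3* (−0.10), *Sgk1* (−0.10), *Mt1* (−0.0499) and *Nr3c1* (−0.0286), and *Mt2* fell to 0.0083. With the slow-fibre score they did so for *Ddit4* (0.0252) and *Hsd11b1* (−0.0137), and with the clock contrast for *Hsd11b1* (−0.0017). *Ddit4* was at 0.0148 without AHRfl 12 and AHRmko 34. Without AHRfl 12, AHRmko 19 and AHRmko 34, *Ddit4* was at 0.27, *Mt1* at −0.29 and *Mt2* at −0.45. *Cdkn1a* stayed between −0.80 and −0.57 over the planned settings, with a lowest adjusted p of 0.221 (DESeq2).

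Of the 45 pairs, 2 had an adjusted p under 0.05, as with another prior count or library size alone, 1 to 4 with 1 mouse left out, 0 without AHRfl 12 and AHRmko 34, and 0 without those and AHRmko 19, where a single pair could not reach an adjusted p under 0.0781 (8 mice) or 0.312 (7 mice), so those 2 counts say nothing of stability. Gained with 1 mouse left out were *Tsc22d3* with *Ddit4* and *Sgk1* with *Mt1* (without AHRmko 19) and *Zbtb16* with *Mt2* (without AHRfl 12). No paired analysis was possible because the labels give no litter, cage or batch that would tie mice across genotypes. Depth did not limit the 10 genes, all of which were far above the floor of 3 counts, and 5 mice a genotype leave wide intervals for genes that vary between mice.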
